A study of Mus musculus with 27 samples.

Results

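Macrophages exposed to bacterial lipopolysaccharide (LPS) for 1 h were compared directly with macrophages exposed to interleukin-4 (IL-4) for 1 h, gene by gene, in chromatin-associated RNA. A gene entered the comparison when it reached a normalized read count of at least 10 in at least 3 of the 6 libraries, which 11871 of the 45070 genes in the table did. Of these, 9902 were protein-coding genes, 1759 were non-coding RNA genes and 210 belonged to other types. The 11871 genes held 99.0% to 99.5% of the normalized reads of each library. The filter admitted 1565 genes that reached the limit in exactly 3 libraries, with a median level of 12.2 normalized reads, and left out 642 genes that reached it in exactly 2, with a median level of 7.67.

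The cells were mouse bone marrow derived macrophages (BMDM), which are grown from the marrow of young male C57/BL6 mice and differentiated in culture, and all groups were wild type. Each group held 3 libraries. The LPS group received 1 h of DMSO followed by 1 h of LPS at 10 ng/ml, and the IL-4 group received 1 h of DMSO followed by 1 h of IL-4 at 10 ng/ml. Untreated macrophages of the same series, also 3 libraries, are listed with the same 1 h of DMSO and no stimulus. They served only as a reference level, and the same stimuli at 0.5 h and 2 h served for the comparison over time. Chromatin-associated RNA is the fraction that stays with the DNA after the cytoplasm and the nucleoplasm are washed away, so it is rich in transcripts that are still being made and spliced.

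LPS is recognized by Toll-like receptor 4 together with CD14 and MD-2. Through the adaptors MyD88 and TRIF it activates NF-kB, MAP kinases and the factor IRF3, which turn on genes for cytokines, chemokines and type I interferon. IL-4 binds a receptor made of the IL-4 receptor alpha chain and a partner chain, and the kinases JAK1 and JAK3 then activate the transcription factor STAT6, which drives genes of the alternatively activated state such as the mannose receptor Mrc1 and the arginase Arg1. The SOCS proteins and CIS are made in response to such signals and feed back on the JAK-STAT pathway, while IkB proteins and A20 feed back on NF-kB.

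Most of the genes that could be compared differed between the stimuli. At an adjusted p under 0.05 in limma, 8150 of 11871 genes (68.7%) were called. Of these, 3109 genes (26.2% of those tested) were higher after LPS and 5041 (42.5%) were higher after IL-4, so that 38.1% of the calls went to LPS. The 3 LPS and the 3 IL-4 values did not overlap for 8502 genes (71.6%), and 7877 genes were both called and free of overlap. Differences are given throughout on the scale of log2(normalized read count + 1), as LPS minus IL-4, so that a positive value is higher after LPS.

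The largest differences ran mainly toward LPS and moderate ones toward IL-4. Among the calls the median difference was 1.29 for genes higher after LPS and -1.41 for genes higher after IL-4. A difference of at least 1 in size was met by 1956 genes higher after LPS and 3545 higher after IL-4. For a difference of at least 3 these counts were 467 and 413, and for a difference of at least 5 they were 104 and 15. The division between the directions depended on the scaling between libraries: it was 3109 to 5041 as deposited, 4014 to 4129 after median-of-ratios rescaling and 2045 to 6815 after scaling to equal totals. The median difference over all genes moved with it, from -0.31 as deposited to -0.03 and -0.77, and small differences are read against that shift.

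**Figure D1:**
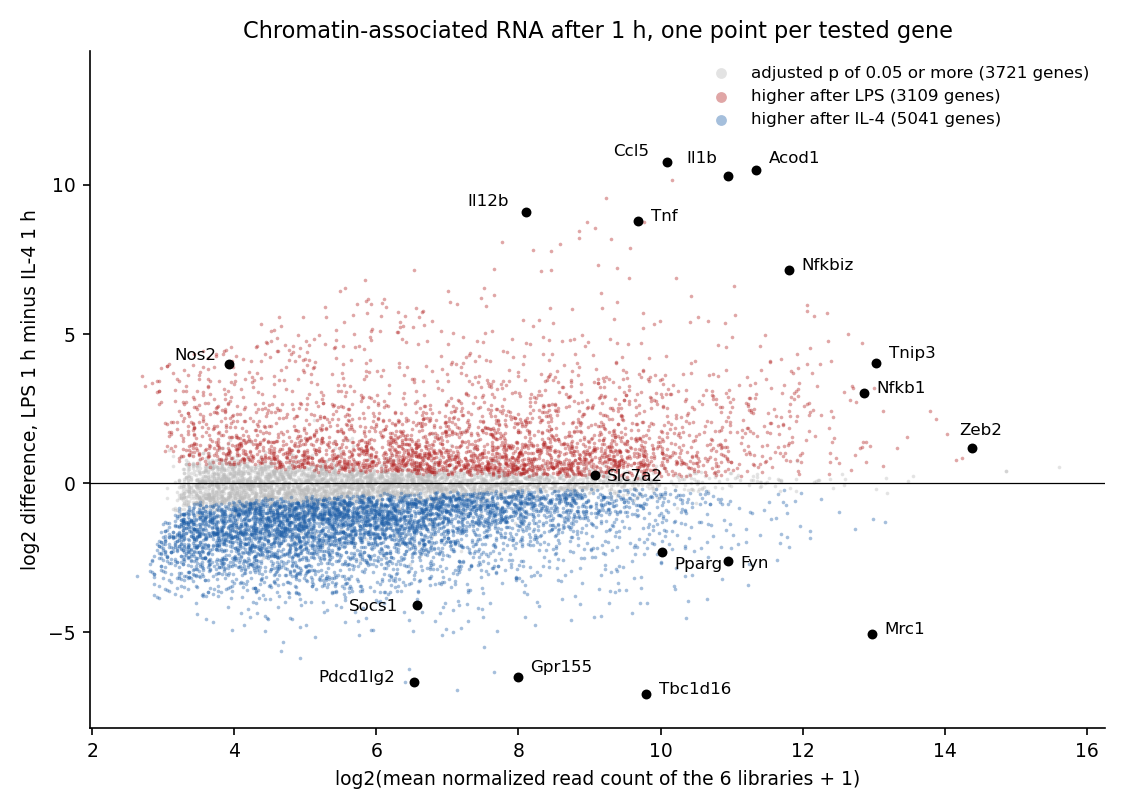
Each point is a tested gene, with the mean log2 level of the 6 libraries on the x axis and the log2 difference LPS minus IL-4 on the y axis. Colored points are the 3109 genes called higher after LPS and the 5041 called higher after IL-4. The highest positive differences pass 10, the lowest stay near -7, and the genes with high counts on the right lie more often above the zero line.

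Genes with high read counts leaned toward LPS and genes with low counts toward IL-4. Counts are not corrected for gene length. Protein-coding genes spanning up to 10000 bases had a median level of 24.3, and those spanning more than 300000 had 371. The level is the mean of the same 6 libraries, so a large rise after either stimulus also raises it. Among the 629 genes with a mean of at least 1000 normalized reads, 63.1% were higher after LPS and 21.3% higher after IL-4, with a median difference of 0.76. Among the 2499 genes with a mean under 20, 14.1% were higher after LPS and 47.1% higher after IL-4, with a median of -0.68. When the comparison was limited to the 6542 genes with a mean of at least 50, 4830 genes were called and 48.0% of those were higher after LPS. Protein-coding genes were called toward LPS in 25.3% and toward IL-4 in 45.0%, while non-coding RNA genes divided evenly at 30.5% and 30.7%. The 5961 genes that overlapped no other gene gave 25.6% and 44.9%. A filter on the same libraries fixes part of this picture, since 402 genes passed only through the LPS libraries and 990 only through the IL-4 libraries, and such genes could hardly fail to differ.

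The 6 libraries compared had 2689703 to 3894624 normalized reads in all, and each LPS library held more than each IL-4 library (3729642 to 3894624 against 2689703 to 2749616). Replicate 1 stood apart from replicates 2 and 3 in each group, with mitochondrial Rnr2 RNA at 0.365% to 0.725% of its reads against 1.31% to 2.91%, and with low cell cycle genes. Macrophage identity was plain: all 12 macrophage markers were detected, with summed levels of 13674 to 18420 after LPS, 13322 to 15975 after IL-4 and 12581 to 14470 untreated. Markers of natural killer, mast and erythroid cells summed to at most 4 in any of these libraries, T cell markers to at most 34 and B cell markers to at most 65, with Cd3e and Cd3g at 0. Dendritic cell markers summed to 86 to 172 after LPS and 45 to 60 after IL-4, with Xcr1 at 0, and fibroblast markers to 57 to 232 and 29 to 136, with Lum at 0. Neutrophil markers summed to 23 to 110 and 20 to 38, with Ly6g at 0. In bulk RNA such as this, fewer cells of a type and less RNA per cell cannot be told apart.

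Set beside untreated macrophages, the genes higher after LPS and the genes higher after IL-4 sat differently against the untreated level. Of the 3109 genes higher after LPS, 1595 (51.3%) had an LPS mean of at least 2 times the untreated mean while IL-4 stayed within 2 times of it. In 160 more, LPS was at least 2 times and IL-4 at most 0.5 times the untreated mean. No floor was applied here, and Il12b is in this class with 0 in all IL-4 and untreated libraries. The 160 therefore include genes without a measured fall after IL-4. Both stimuli stood at 2 times or more in 190 genes. Of the 5041 genes higher after IL-4, 3114 (61.8%) instead had an LPS mean of at most 0.5 times the untreated mean with IL-4 within 2 times of it. In 268 genes IL-4 reached at least 2 times the untreated mean with LPS above 0.5 times, and in 145 genes IL-4 reached it while LPS was at most 0.5 times. These classes use the untreated level as a description and were not tested.

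**Figure D2:**
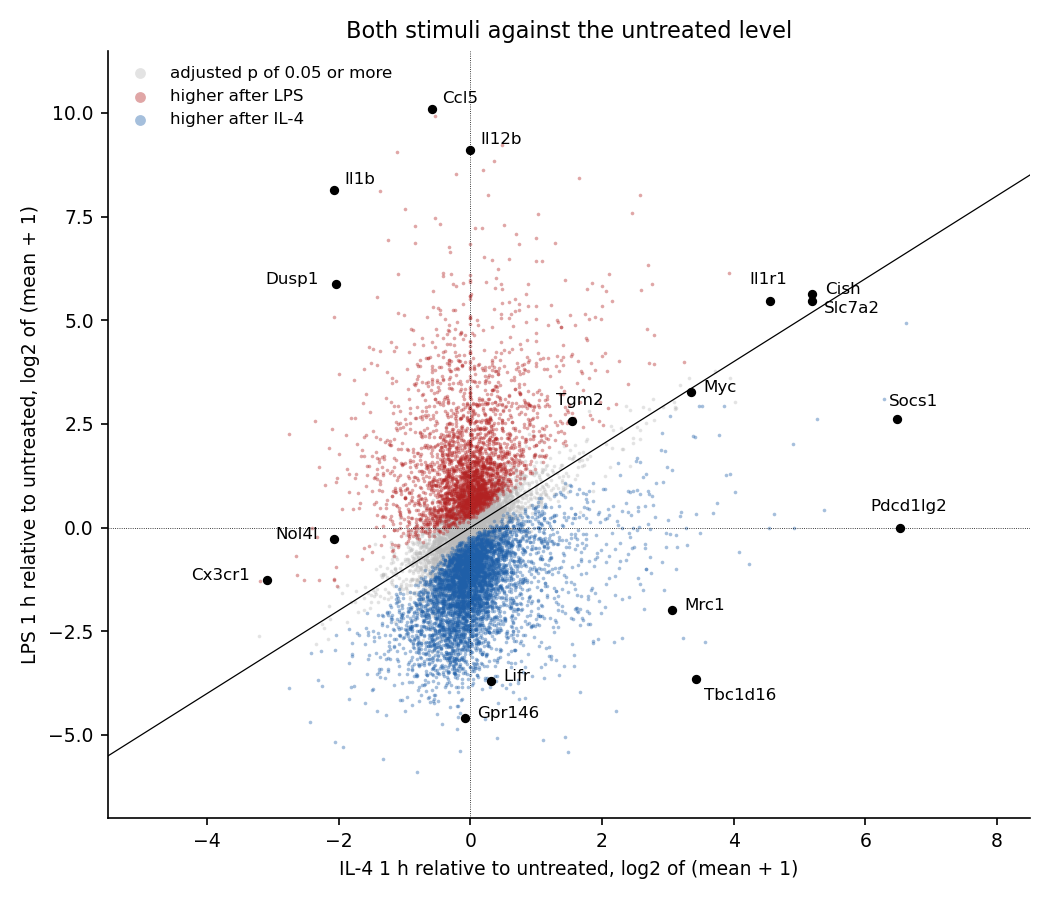
Each point is a tested gene, with log2 of the IL-4 mean + 1 over the untreated mean + 1 on the x axis and the same ratio for LPS on the y axis. Genes called higher after LPS spread upward and genes called higher after IL-4 spread mostly downward along the LPS axis, and the 268 and 145 genes at 2 times untreated or more after IL-4 reach out to the right.

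Short stretches of some promoters show the kinds of elements on which these pathways are known to converge. The promoter table of RefSeq (GRCm38.p6, 250 bases before to 50 bases after each transcript start) matched 9325 of the 11871 tested genes and 49 of 63 genes that were fixed or ranked for naming. It was searched on both strands for NF-kB (GGGANNTTCC), STAT6-type (TTCNNNNGAA), GAS-type (TTCNNNGAA), ISRE-type (GAAANNGAAA), AP-1 (TGANTCA) and CRE (TGACGTCA) letters. Windows of 30 bases are printed in the direction of the gene, 5′ to 3′, with the matching letters in capitals, for genes whose values are described next. Positions are of the first capital, counted from the transcript start.
Nfkbia, NF-kB letters at -29, chr12:55492657-55492686, minus strand: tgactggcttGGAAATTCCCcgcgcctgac
Cxcl2, NF-kB letters at -97, chr5:90903792-90903821, plus strand: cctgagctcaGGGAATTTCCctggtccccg
Cxcl10, NF-kB letters at -159, chr5:92349029-92349058, minus strand: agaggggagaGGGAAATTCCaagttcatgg
Cxcl10, ISRE-type letters at -213, chr5:92349083-92349112, minus strand: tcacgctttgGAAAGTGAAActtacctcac
Ifnb1, NF-kB letters at -116, chr4:88522891-88522920, minus strand: aactgaaagtGGGAAATTCCtctgaggcag
Rsad2, ISRE-type letters at -120, chr12:26456553-26456582, minus strand: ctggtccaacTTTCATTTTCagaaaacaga
Dusp1, CRE letters at -143, chr17:26508597-26508626, minus strand: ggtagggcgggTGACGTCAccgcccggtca
Socs3, GAS-type letters at -154, chr11:117969501-117969530, minus strand: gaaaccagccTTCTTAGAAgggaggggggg
Socs1, ISRE-type letters at -83, chr16:10785600-10785629, minus strand: agacttgccgGAAAGAGAAAccgaaagcgg
Cish, GAS-type letters at 11, chr9:107296660-107296689, plus strand: tcctggaaagTTCTTGGAAatctgtcaaag
Irf1, GAS-type letters at -90, chr11:53769914-53769943, plus strand: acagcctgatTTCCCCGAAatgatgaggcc
Pdcd1lg2, STAT6-type letters at -82, chr19:29410827-29410856, plus strand: catgctccagTTCCTCAGAAaccattctgg
The NF-kB letters stood in 3.71% of 458 promoters of genes higher after LPS by at least 3 and at 2 times untreated or more, in 1.69% of 12019 promoters of tested genes and in 1.47% of 32851 promoters of the table. For AP-1 letters these shares were 12.9%, 5.64% and 7.81%. The STAT6-type letters stood in 8.93% of 347 promoters of genes higher after IL-4 by at least 1 and at 2 times untreated or more, in 5.76% of the promoters of tested genes and in 6.95% of all promoters. Other letters in these classes did not all stand above the tested genes: CRE letters were in 2.62% of the LPS class against 2.86% of tested genes, and GAS-type letters in 9.83% of the LPS class and 5.19% of the IL-4 class against 7.08%. ISRE-type letters were in 5.24% and 2.31% against 3.25%. These shares were not tested. A match describes letters in this window and is no measured site, and one gene can hold several promoters. The printed windows are a selection. Tnf, Il1b, Il12b, Ccl5, Acod1, Mrc1, Arg1 and Klf4 gave no window, through no match, no promoter or letters not sought in their class. For windows, Il12b and Acod1 were not searched for STAT6-type or GAS-type letters. Mrc1, Arg1 and Klf4 were not searched for AP-1 or CRE letters. Ccl17, which held at most 1 normalized read at 1 h, had STAT6-type letters at -154 and GAS-type letters at -99. A further class was higher after IL-4 by at least 1, with LPS at 0.5 times untreated or less and IL-4 within 2 times of it. There 1.23% of 2938 promoters held NF-kB letters and 5.41% held STAT6-type letters.

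Cytokine genes were higher after LPS with hardly an exception. Of 23 listed cytokine genes 19 were tested. Of these, 18 were higher after LPS and none was higher after IL-4, with a median difference of 4.75 against -0.31 over all genes. Over all tested genes 26.2% were higher after LPS and 42.5% after IL-4, and every list count below stands beside these shares. By the filter, 13 of the 19 passed through the LPS libraries alone, which set their direction, so the count and the median describe these genes only. Il1b, which encodes the proinflammatory cytokine IL-1 beta, read 3663, 4173 and 4035 after LPS and 4, 1 and 2 after IL-4, where untreated cells read 6, 9 and 24. The lowest LPS library thus lay far above every IL-4 library, and the difference was 10.31 ± 0.45 (SE, limma adjusted p = 2.98e-15). Tnf, encoding the cytokine TNF and located on chr17:35199367-35202007, read 1685, 1697 and 1538 after LPS against 4, 4 and 1 after IL-4, a difference of 8.80 ± 0.55 (SE, limma adjusted p = 1.75e-12). Il12b, which encodes the p40 chain shared by IL-12 and IL-23, read 663, 535 and 451 after LPS and was listed at 0 in all 3 IL-4 and all 3 untreated libraries. Against a floor of 3 normalized reads per library its LPS mean was at least 183-fold higher.

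Other cytokine genes covered a wide span of levels in the same direction. Il1a read 1028, 1107 and 1089 after LPS and 3, 1 and 2 after IL-4, at least 358-fold higher against the floor. Tnfsf9, which encodes the costimulatory 4-1BB ligand, read 1223, 1133 and 1410 against 4, 3 and 3 (8.18 ± 0.27, SE). The replicate values of both genes stayed far apart between the stimuli. The anti-inflammatory cytokine gene Il10 was lower in level but as steady, at 179, 188 and 224 after LPS and 4 in each IL-4 library (5.30 ± 0.27, SE, limma adjusted p = 6.31e-14). Il6 read 120, 72 and 72 after LPS and 0 in each IL-4 library. Il15, whose cytokine sustains natural killer and memory T cells, was already transcribed without stimulus at 1201, 1224 and 1340, read 4741, 4982 and 4905 after LPS and read 816, 975 and 1077 after IL-4 (2.36 ± 0.10, SE). Osm, the oncostatin M gene, was the tested cytokine gene that was not called, at 17, 10 and 8 against 10, 12 and 4. Il23a, Il33, Il12a and Csf3 stayed below the filter.

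Chemokine genes followed the cytokine genes. Of 23 listed, 17 were tested, 16 were higher after LPS and none was higher after IL-4, with a median difference of 4.62, and 9 of the 17 passed through the LPS libraries alone. Ccl5, whose product attracts T cells and monocytes, read 2367, 2127 and 2065 after LPS and 0, 0 and 1 after IL-4, at least 729-fold higher against the floor (10.76 ± 0.52, SE, limma adjusted p = 2.35e-14). No other gene of the protein-coding ranking had a larger fitted difference, but that order rests on the pseudocount: with a pseudocount of 8 the difference was 8.04 for Ccl5 and 8.94 for Acod1. Cxcl2, a neutrophil attractant with the NF-kB letters printed above, read 434, 437 and 429 after LPS and 3, 0 and 0 after IL-4, at least 144-fold higher. Cxcl10, an interferon-inducible chemokine gene with both NF-kB and ISRE-type letters, read 617, 585 and 559 against 2, 2 and 1, at least 196-fold higher. The inflammatory chemokine genes Ccl3 and Ccl4 had some signal after IL-4: Ccl4 read 3222, 2026 and 1847 after LPS and 33, 16 and 12 after IL-4 (6.87 ± 0.35, SE). Gm32650 overlaps Ccl5 and Art3 overlaps Cxcl10 on the opposite strand, and whether the read counting used strand is not given in the sources used here.

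The monocyte attractants Ccl2 and Ccl7 stood above untreated after both stimuli, and LPS was higher. Ccl7 read 189, 153 and 147 after LPS, 27, 55 and 22 after IL-4 and 0, 2 and 2 untreated, so that the stimulated groups did not overlap (2.30 ± 0.49, SE, limma adjusted p = 0.000235). Ccl22, often listed as an IL-4-responsive chemokine gene, read 40, 53 and 49 after LPS and was listed at 0 in all IL-4 and untreated libraries at 1 h. Ccl17, another chemokine gene known to respond to IL-4, held at most 1 normalized read in any of these 9 libraries and was not tested. Ccl24 was below the filter, at 2, 3 and 9 after LPS and 11, 7 and 10 after IL-4.

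The chemoattractant receptors mostly went the same way, with 8 of 11 tested genes higher after LPS and 1 higher after IL-4, and 4 of the 11 had passed the filter through one stimulus alone. The formyl peptide receptor gene Fpr2 read 80, 47 and 54 after LPS and 1, 0 and 0 after IL-4, and the complement receptor gene C5ar1 read 856, 809 and 740 against 69, 70 and 39 (3.78 ± 0.30, SE). Cxcr4, encoding the receptor for CXCL12, was the receptor gene higher after IL-4, at 31, 24 and 17 against 7, 9 and 7, although untreated cells were higher still at 90, 72 and 53. Ccr2, the receptor for CCL2, was not called: 11, 13 and 23 after LPS, 9, 31 and 23 after IL-4 and 44, 97 and 97 untreated.

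The NF-kB system itself was transcribed far more after LPS. Of 15 genes for NF-kB subunits and their feedback inhibitors, all tested, 14 were higher after LPS and none after IL-4, with a median difference of 3.77. Nfkbia, which encodes the inhibitor IkB alpha and lies on chr12:55489409-55492647, read 1340, 1868 and 1823 after LPS, 60, 47 and 31 after IL-4 and 49, 55 and 55 untreated. The groups were far apart, by 36.5-fold in their means (5.19 ± 0.24, SE, limma adjusted p = 8.82e-15). Nfkbiz, the gene of the nuclear cofactor IkB zeta, read 6957, 7138 and 7330 after LPS against 62, 40 and 47 after IL-4, and these IL-4 values lay below the untreated 199, 202 and 233. Tnfaip3, encoding the deubiquitinase A20, read 5167, 3643 and 3664 against 66, 28 and 38 (6.60 ± 0.34, SE).

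The subunit genes had smaller differences than the inhibitor genes named above, from 2.01 for Rel and Rela to 3.77 for Nfkb2. Nfkb1, for the p105 precursor, read 13855, 13025 and 12851 after LPS, 1391, 1835 and 1733 after IL-4 and 835, 748 and 791 untreated (3.01 ± 0.12, SE). Rel, for the subunit c-Rel, read 4493, 5063 and 4892 against 1214, 1229 and 1134 (2.01 ± 0.11, SE), where untreated cells read 402, 461 and 508. Both genes therefore read above untreated after either stimulus. Cyld, which encodes a deubiquitinase, was the member that was not called, at 348, 411 and 443 against 321, 386 and 358 (0.17 ± 0.16, SE, limma adjusted p = 0.351).

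Among the immediate early transcription factors, which cells switch on without new protein synthesis, 17 of 22 tested genes were higher after LPS and 1 was higher after IL-4, with a median difference of 1.51. Of the 22, 9 passed the filter through one stimulus alone, which set their direction. After scaling to equal totals 12 were higher after LPS. Nr4a3, an orphan nuclear receptor gene, read 142, 107 and 106 after LPS and 0, 2 and 1 after IL-4, and Junb, for an AP-1 subunit, read 255, 252 and 245 against 18, 14 and 11 (4.06 ± 0.29, SE). Klf6, for a zinc finger factor, read 1027, 1072 and 1045 against 150, 139 and 121 (2.94 ± 0.11, SE, limma adjusted p = 3.19e-16). Fos was among the called genes, but its 18, 18 and 12 after LPS did not exceed the untreated 15, 19 and 45, and IL-4 read 5, 2 and 3. Klf4, a factor gene known as a STAT6 target in macrophages, was the gene higher after IL-4, at 12, 16 and 12 against 1, 4 and 4 (-1.95 ± 0.43, SE, limma adjusted p = 0.000336). Jun, Ier3, Klf10 and Myc were not called.

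Egr2 belongs to this list and to the IL-4-responsive genes, since its factor acts downstream of STAT6 as well. It read 51, 57 and 64 after LPS, 50, 25 and 26 after IL-4 and 2, 1 and 5 untreated, so both stimuli stood clearly above untreated and the lowest LPS value lay just above the highest IL-4 value. The difference of 0.82 ± 0.33 (SE, limma adjusted p = 0.0313) was lost without either replicate 2 or replicate 3, without any single LPS or IL-4 library of these replicates, and with equal totals (0.35). The predicted gene Gm32255 overlaps Egr2 on the opposite strand.

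The phosphatases that switch off MAP kinases divided by member. Of 11 tested dual-specificity phosphatase genes 5 were higher after LPS and 5 higher after IL-4, with 5 of the 11 admitted through one stimulus alone. The share toward IL-4 was near the 42.5% of all tested genes, of which 26.2% were higher after LPS. Dusp1, whose product inactivates p38 and JNK, read 1224, 1530 and 1800 after LPS and 6, 5 and 5 after IL-4 (7.89 ± 0.37, SE, limma adjusted p = 1.07e-14), and the untreated libraries read 14, 22 and 39. Dusp5 and Dusp2 showed the same pattern, Dusp5 with 693, 577 and 627 against 7, 2 and 3. Dusp4 instead read 50, 38 and 43 after LPS, 97, 108 and 93 after IL-4 and 9, 7 and 10 untreated (-1.17 ± 0.26, SE). Dusp6, which acts on ERK, read 3, 4 and 3 against 10, 19 and 20, with 17, 19 and 39 in untreated cells. For this gene LPS was the low group, and IL-4 lay in or near the untreated range.

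The regulators of messenger RNA decay also went both ways, with 7 of 13 tested genes higher after LPS and 5 higher after IL-4. Scaling libraries to equal totals left 4 higher after LPS. Toward IL-4 the share was again near the 42.5% of all tested genes, beside 26.2% toward LPS. Zfp36, which encodes the decay factor tristetraprolin, read 2305, 1612 and 1825 after LPS and 200, 186 and 174 after IL-4 (3.34 ± 0.18, SE). Its relative Zfp36l1 went the other way at 69, 54 and 61 against 221, 182 and 176 (-1.64 ± 0.27, SE). Zc3h12a, for the endonuclease regnase-1, was above untreated after both stimuli: 365, 330 and 367 after LPS, 280, 257 and 243 after IL-4 and 69, 48 and 73 untreated (0.44 ± 0.14, SE). Cnot6l, for a deadenylase subunit, read 165, 186 and 187 against 656, 866 and 1056.

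Interferon-responsive genes were higher after LPS in 23 of 27 tested cases and higher after IL-4 in none, with a median difference of 2.48, and 4 of the 27 had passed through one stimulus alone. Rsad2, the gene of the antiviral protein viperin, read 2148, 1036 and 757 after LPS and 26, 13 and 14 after IL-4. Replicate 1 was more than 2 times replicate 3 after LPS, yet the groups stayed far apart (6.06 ± 0.45, SE, limma adjusted p = 4.03e-11). Ifih1, for the RNA sensor MDA5, read 9702, 8746 and 8495 against 172, 173 and 204 (5.61 ± 0.20, SE). Ifit2 read 277, 105 and 63 against 18, 17 and 21 (2.66 ± 0.35, SE), again with replicate 1 highest. Ifi47, Igtp, Zbp1 and Eif2ak2 were not called. After median-of-ratios rescaling all 27 were called higher after LPS, and after scaling to equal totals 19 were.

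The interferon gene itself was barely measurable. Ifnb1, encoding interferon beta, read 17, 16 and 5 after LPS and 0 in all IL-4 and untreated libraries, and since only 2 of the 6 libraries reached 10 it was not tested. Among 13 tested receptor and interferon regulatory factor genes 6 were higher after LPS and 3 higher after IL-4. These 3 became 1 after median-of-ratios rescaling and 6 after scaling to equal totals. Irf1, for an interferon-inducible activator, read 676, 385 and 280 after LPS and 128, 88 and 91 after IL-4 (2.04 ± 0.26, SE, limma adjusted p = 2.38e-07). Irf2, for a factor that can oppose IRF1, went the other way with 1238, 1109 and 1037 against 2742, 2980 and 3031 (-1.37 ± 0.10, SE), and the untreated libraries lay between at 1686, 1662 and 1753. Irf4, a factor required for alternative activation, read 37, 55 and 56 against 113, 85 and 86 with 21, 16 and 10 untreated. Its difference of -0.94 ± 0.36 (SE, limma adjusted p = 0.0242) became -0.65 with an adjusted p of 0.131 under median-of-ratios rescaling, and it was also lost without LPS replicate 1, without IL-4 replicate 1 and without replicate 2 of every group. Irf3 was not called.

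**Figure D3:**
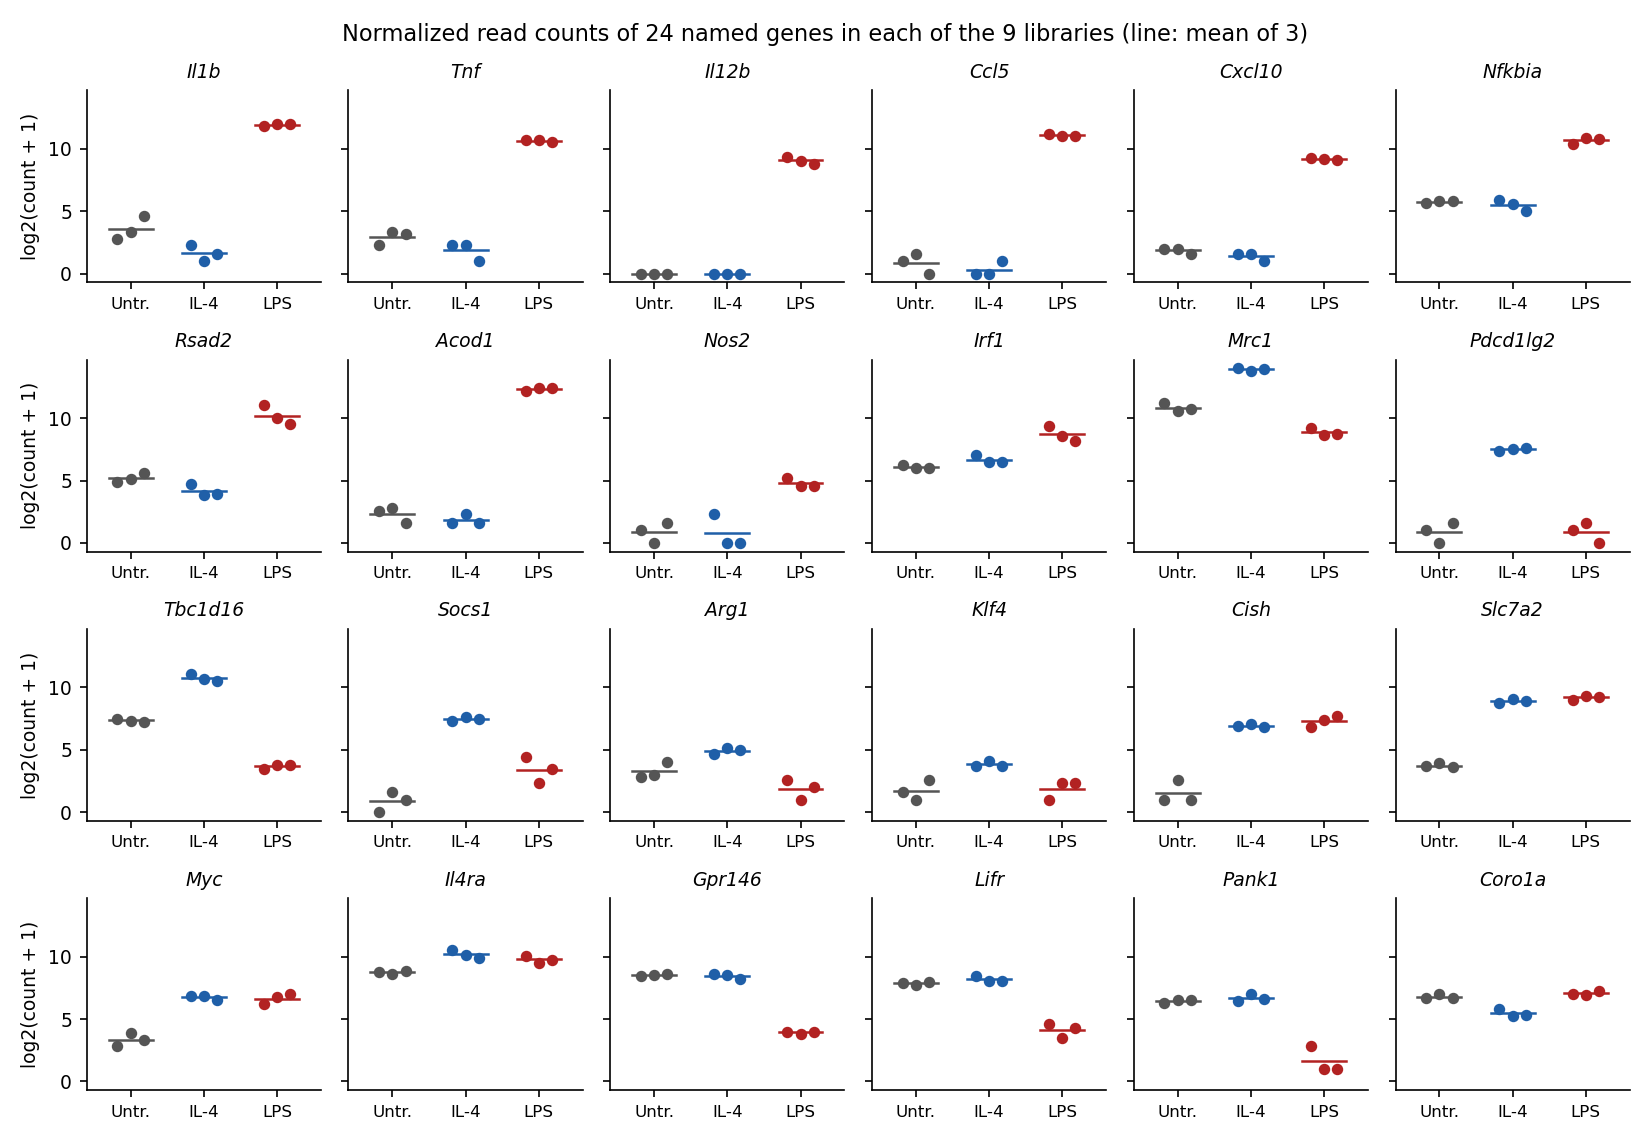
Values of 24 genes described in the text are plotted per library on a log scale of normalized read count + 1, for untreated, IL-4 and LPS macrophages. Inflammatory genes such as Tnf and Il1b sit near the floor without stimulus and after IL-4 and above 1000 after LPS, Mrc1 and Pdcd1lg2 are highest after IL-4, and Cish, Slc7a2 and Myc lie above untreated after both.

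Effector enzymes of the inflammatory macrophage were higher after LPS in 10 of 15 tested cases and higher after IL-4 in 2, and 6 of the 15 had passed through one stimulus alone. Acod1, whose product makes itaconate, read 4717, 5378 and 5553 after LPS and 2, 4 and 2 after IL-4 (10.52 ± 0.52, SE, limma adjusted p = 3.17e-14). Gm41235 overlaps it on the opposite strand. Ptgs2, the inducible cyclooxygenase gene, read 334, 392 and 467 against 4, 1 and 1, whereas the constitutive cyclooxygenase gene Ptgs1 went the other way with 11, 10 and 12 against 384, 290 and 224 (-4.61 ± 0.29, SE). Untreated cells held Ptgs1 at 134, 99 and 67, so its LPS values lay below and its IL-4 values above the untreated ones. Nos2, for inducible nitric oxide synthase, was still low at 1 h, with 35, 23 and 23 against 4, 0 and 0 (4.01 ± 0.58, SE, limma adjusted p = 2.04e-06). Slc7a11, for a cystine transporter, read 1791, 1391 and 1288 against 21, 8 and 9. Arg1, for arginase 1, was the other enzyme gene higher after IL-4, at 24, 35 and 30 against 5, 1 and 3 (-3.06 ± 0.44, SE, limma adjusted p = 1.47e-06), with 6, 7 and 15 in untreated cells.

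Genes of Toll-like receptor signaling were mostly higher after LPS, but Tlr4 was not. Of 24 tested, 17 were higher after LPS and 4 higher after IL-4 (12 and 7 with equal totals). Over all tested genes the shares were 26.2% and 42.5%, and 2 of the 24 had passed through one stimulus alone. Traf1, encoding a signaling adaptor, read 881, 921 and 960 after LPS and 4, 1 and 2 after IL-4. Tlr2, the receptor gene for bacterial lipoproteins, read 620, 709 and 767 against 18, 20 and 11 (5.37 ± 0.27, SE), and Cd14 read 295, 340 and 279 against 14, 15 and 12. For both receptors IL-4 lay below the untreated values, which were 60, 58 and 57 for Tlr2. Tlr4, the LPS receptor gene, read 111, 152 and 153 after LPS, 486, 631 and 686 after IL-4 and 304, 356 and 388 untreated. Its groups did not overlap, and the difference was -2.11 ± 0.25 (SE, limma adjusted p = 1.13e-07). Tlr8, Tlr5 and the kinase gene Irak4 were the others higher after IL-4.

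Costimulatory ligands and antigen presentation genes leaned to LPS, with 9 of 15 tested genes higher after LPS and 3 higher after IL-4. By the filter 3 of the 15, among them Tnfsf4 and Pdcd1lg2, had passed through one stimulus alone, which set their direction. Tnfsf4, for the OX40 ligand, read 87, 88 and 102 after LPS and 0 in each IL-4 library. Cd40, the receptor through which T cells license macrophages, read 3426, 2982 and 3035 after LPS, 296, 220 and 239 after IL-4 and 44, 27 and 43 untreated (3.65 ± 0.23, SE), and was thus above untreated after both stimuli. The checkpoint ligand genes went to IL-4. Pdcd1lg2, encoding PD-L2, read 1, 2 and 0 after LPS and 162, 186 and 200 after IL-4, at least 60.9-fold higher against the floor (-6.65 ± 0.42, SE, limma adjusted p = 2.81e-12). Cd274, encoding PD-L1, read 354, 130 and 127 against 359, 289 and 301 (-0.80 ± 0.32, SE, limma adjusted p = 0.0302), and its groups overlapped because LPS replicate 1 was as high as the IL-4 libraries. Both checkpoint genes read above untreated after IL-4.

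IL-4-responsive genes were mostly higher after IL-4. Of 32 listed, 27 were tested, 21 of these were higher after IL-4 and 3 higher after LPS, where 42.5% of all tested genes were higher after IL-4, and the median difference was -2.67. By the filter 8 of the 27 passed through one stimulus alone. Mrc1, which encodes the mannose receptor CD206 and spans chr2:14229414-14332023, read 606, 396 and 418 after LPS, 16253, 14498 and 16212 after IL-4 and 2386, 1541 and 1708 untreated. It was 33.1-fold higher after IL-4 (-5.07 ± 0.16, SE, limma adjusted p = 1.94e-17), with LPS below and IL-4 above every untreated library. The microRNA gene Mir511 lies within Mrc1 on the same strand. Fcgr2b, the inhibitory Fc receptor gene, read 508, 448 and 485 after LPS and 1548, 1590 and 1494 after IL-4, both above the untreated 235, 160 and 158 (-1.68 ± 0.16, SE). Tarm1, an activating receptor gene, was listed at 0 in untreated cells and read 35, 22 and 31 after LPS and 77, 101 and 113 after IL-4. Rasgrp1, for a Ras activator, read 33, 19 and 22 against 229, 218 and 251 (-3.22 ± 0.27, SE).

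Further members of the list showed 3 ways of being higher after IL-4. Cdh1, for E-cadherin, read 23, 47 and 52 after IL-4 and at most 1 after LPS and in untreated cells. Pparg, for a nuclear receptor of lipid metabolism, read 1977, 1645 and 1563 after IL-4, 397, 339 and 303 after LPS and 986, 742 and 689 untreated (-2.32 ± 0.20, SE), so the stimuli lay on opposite sides of untreated. Tfec, for a factor related to MITF, was strongly above untreated after both: 3265, 3596 and 3838 after LPS, 4495, 4364 and 4622 after IL-4 and 558, 531 and 562 untreated. Its difference was small at -0.34 ± 0.13 (SE, limma adjusted p = 0.0302), close to the median of all genes. The 3 members higher after LPS were Ccl22, Egr2 and the transglutaminase gene Tgm2, which read 574, 472 and 492 against 221, 337 and 202. Retnla and Chil3, well known late IL-4 genes, were below the filter, Retnla with at most 6 normalized reads after IL-4 and Chil3 listed at 0.

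Outside the lists, the largest differences toward IL-4 among genes at 2 times untreated or more after IL-4 had LPS values close to the floor. Tbc1d16, for a Rab GTPase activating protein on chr11:119143043-119228499, read 10, 13 and 13 after LPS, 2160, 1673 and 1461 after IL-4 and 178, 161 and 151 untreated, a 147-fold difference in means (-7.08 ± 0.19, SE, limma adjusted p = 1.08e-18). Gpr155 read 5, 5 and 4 after LPS, 522, 508 and 480 after IL-4 and 191, 175 and 192 untreated (-6.48 ± 0.36, SE). Rtkn2 read 1, 0 and 1 against 106, 175 and 218. In all of them the untreated level stood between the stimuli. The other genes of this ranking were St8sia1, Ggt5, Gask1b, Cables1 and Fam234b beside Mrc1 and Pdcd1lg2. Gpr155, Rtkn2, St8sia1, Gask1b, Fam234b and Pdcd1lg2 had passed the filter through the IL-4 libraries alone, which set their direction. St8sia1, for a ganglioside sialyltransferase, read 38, 72 and 93 after IL-4 and at most 3 after LPS or untreated. Cables1 read 508, 344 and 355 against 12, 14 and 10 (-4.94 ± 0.33, SE). Genes on the opposite strand overlap Tbc1d16, Gpr155, St8sia1, Ggt5, Gask1b, Cables1 and Fam234b.

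The far larger class, in which LPS was at most 0.5 times untreated and IL-4 stayed near it, had genes of varied function at the head of its ranking. Pank1, for pantothenate kinase of coenzyme A synthesis, read 6, 1 and 1 after LPS, 85, 127 and 99 after IL-4 and 79, 93 and 93 untreated (-5.09 ± 0.41, SE, limma adjusted p = 1.73e-10). Hadh, for an enzyme of fatty acid oxidation, read 0, 1 and 5 after LPS against 50, 55 and 52 after IL-4 and 36, 47 and 44 untreated. Acp6, a phosphatase gene, read 0, 1 and 5 against 47, 55 and 51. In these genes the LPS libraries lay far below both the IL-4 and the untreated libraries, and for Hadh each IL-4 library was above each untreated one. Bin2, for a membrane-binding protein of leukocytes, read 8, 11 and 19 after LPS, 244, 230 and 215 after IL-4 and 221, 203 and 185 untreated (-4.16 ± 0.21, SE). Lifr, for the receptor of leukemia inhibitory factor, read 23, 10 and 19 against 342, 263 and 271, while its ligand gene Lif read 65, 38 and 34 after LPS and 2, 0 and 2 after IL-4. Abhd18, Rtn4rl1 and Tifab completed this ranking together with Gpr146 and 3110082I17Rik, which lie on opposite strands of one locus and cannot be read apart where counting ignores strand. Gpr146 read 15, 13 and 15 after LPS and 386, 360 and 296 after IL-4. Pank1, Hadh, Acp6, Abhd18, Rtn4rl1 and Tifab had passed the filter through the IL-4 libraries alone, which set their direction.

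The class in the other direction was smaller. Among called genes, 93 were higher after LPS with IL-4 at 0.5 times untreated or less and LPS under 2 times it. The class just described held 3114, but the limits differ. The 93 set no lower limit on LPS, whereas 133 genes higher after IL-4 with both stimuli at 0.5 times or less were kept apart. The balance of directions also depends on the scaling, as given above. Under the ranking limits, which admit protein-coding genes with the other stimulus between 0.8 times untreated and the reciprocal of that, the numbers were 15 and 914. Nol4l read 350, 252 and 231 after LPS, 89, 79 and 70 after IL-4 and 392, 323 and 297 untreated (1.78 ± 0.24, SE, limma adjusted p = 7.03e-07). Pstpip1, for a cytoskeletal adaptor, read 371, 473 and 461 against 122, 144 and 128, with 310, 353 and 399 untreated. Coro1a, for the actin regulator coronin 1A, read 131, 124 and 148 against 55, 37 and 39. In these genes IL-4 was the group that lay apart. Adap2 behaved alike, and Tgfbi, which read 103, 230 and 231 against 35, 88 and 62, was no longer called without replicate 3. Cx3cr1, the fractalkine receptor gene, was below untreated after both stimuli but more so after IL-4: 74, 91 and 101 after LPS, 17, 36 and 20 after IL-4 and 147, 221 and 279 untreated (1.88 ± 0.62, SE, limma adjusted p = 0.0103). That call was also lost without replicate 3.

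Members of the SOCS family, the feedback regulators of JAK-STAT signaling, went to different stimuli. Of 23 tested JAK-STAT and SOCS genes 11 were higher after LPS and 6 higher after IL-4, beside 26.2% and 42.5% of all tested genes. The IL-4 count was 3 after median-of-ratios rescaling and 11 with equal totals. By the filter 2 of the 23, Socs3 and Socs2, had passed through one stimulus alone, which set their direction. Socs3, which restrains signaling through gp130, read 451, 336 and 405 after LPS and 4, 3 and 5 after IL-4 (6.33 ± 0.34, SE, limma adjusted p = 1.57e-13). Socs1, which restrains interferon and IL-4 receptors, read 20, 4 and 10 after LPS, 160, 197 and 175 after IL-4 and 0, 2 and 1 untreated, 15.6-fold higher after IL-4 (-4.08 ± 0.42, SE, limma adjusted p = 8.81e-09). Socs2 read 35, 32 and 32 after IL-4 and at most 1 after LPS. Cish, encoding CIS, was shared: 113, 168 and 209 after LPS, 120, 132 and 112 after IL-4 and 1, 5 and 1 untreated. Its stimulated groups overlapped (0.38 ± 0.33, SE, limma adjusted p = 0.302).

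The kinases and transcription factors of the pathway were mostly higher after LPS. Jak2 read 4717, 5554 and 6020 after LPS, 506, 632 and 655 after IL-4 and 138, 168 and 176 untreated (3.18 ± 0.17, SE). Stat5a read 967, 1468 and 1532 against 102, 94 and 82, and Jak1, the kinase gene on the IL-4 receptor, read 4609, 2963 and 2978 against 1132, 938 and 930. Stat6, the gene of the IL-4 signal transducer, read 396, 420 and 429 after LPS, 178, 170 and 142 after IL-4 and 209, 245 and 225 untreated (1.35 ± 0.14, SE, limma adjusted p = 8.98e-09). Jak3 was higher after IL-4 by a small amount, at 69, 59 and 71 against 117, 83 and 94 (-0.55 ± 0.17, SE). So was Stat2, at 451, 328 and 246 against 496, 459 and 408 (-0.45 ± 0.17, SE), and its groups overlapped. Both differences lay not far from the median of -0.31 over all genes, which moves with the scaling. Stat5b, Ptpn2, Ptpn6, Socs4 and Socs5 were not called.

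Receptor chains for IL-4 and related cytokines divided 9 to 6 of 18 tested, with LPS first. All tested genes divided 26.2% to 42.5%. Il4ra, the alpha chain, read 1068, 735 and 858 after LPS, 1493, 1140 and 940 after IL-4 and 427, 397 and 471 untreated, and so stood above untreated after both. Its difference of -0.42 ± 0.20 (SE) was not called at a limma adjusted p of 0.0633. With replicate numbers as a block it was called, at a limma adjusted p of 0.0392. It was also called with equal totals (-0.89), with sample weights, without replicate 1, without LPS replicate 1 and without IL-4 replicate 3. The partner chains were higher after LPS: Il2rg, the common gamma chain, read 212, 318 and 350 against 29, 42 and 17, and Il13ra1 read 194, 159 and 150 against 23, 14 and 10 (3.41 ± 0.24, SE). Csf1r, the growth factor receptor that macrophages depend on, read 753, 997 and 1018 after LPS, 2680, 2529 and 2030 after IL-4 and 2052, 1814 and 2048 untreated (-1.39 ± 0.12, SE). Il1rap, the accessory chain of the IL-1 receptor, read 135, 167 and 175 against 391, 525 and 570.

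Genes that both stimuli held well above untreated without a called difference numbered 44. Slc7a2, for a transporter of arginine, read 517, 637 and 612 after LPS and 429, 530 and 495 after IL-4. Untreated cells read 12, 14 and 11, and the difference was 0.28 ± 0.14 (SE, limma adjusted p = 0.0809). Myc read 71, 106 and 130 against 115, 116 and 92 with 6, 14 and 9 untreated (-0.11 ± 0.32, SE), and Gda, for guanine deaminase, read 897, 985 and 1069 against 878, 1087 and 1113 with 98, 139 and 119 untreated (-0.06 ± 0.17, SE). The stimulated groups of Slc7a2, Myc and Gda overlapped. Nfil3 read 341, 184 and 198 against 270, 149 and 185. Il1r1, the IL-1 receptor gene, was different in kind: its 128, 113 and 156 after LPS lay above its 57, 70 and 82 after IL-4. The difference of 0.92 ± 0.46 (SE) missed the threshold at a limma adjusted p of 0.0802 but passed it at 0.0271 with the replicate block. It also passed with the 6 libraries alone, with a pseudocount of 8 and after median-of-ratios rescaling. A p above the threshold does not show equal transcription, and under rescaling Slc7a2 was called higher after LPS (0.57, median-of-ratios) and Gda higher after IL-4 (-0.53, equal totals).

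**Figure D4:**
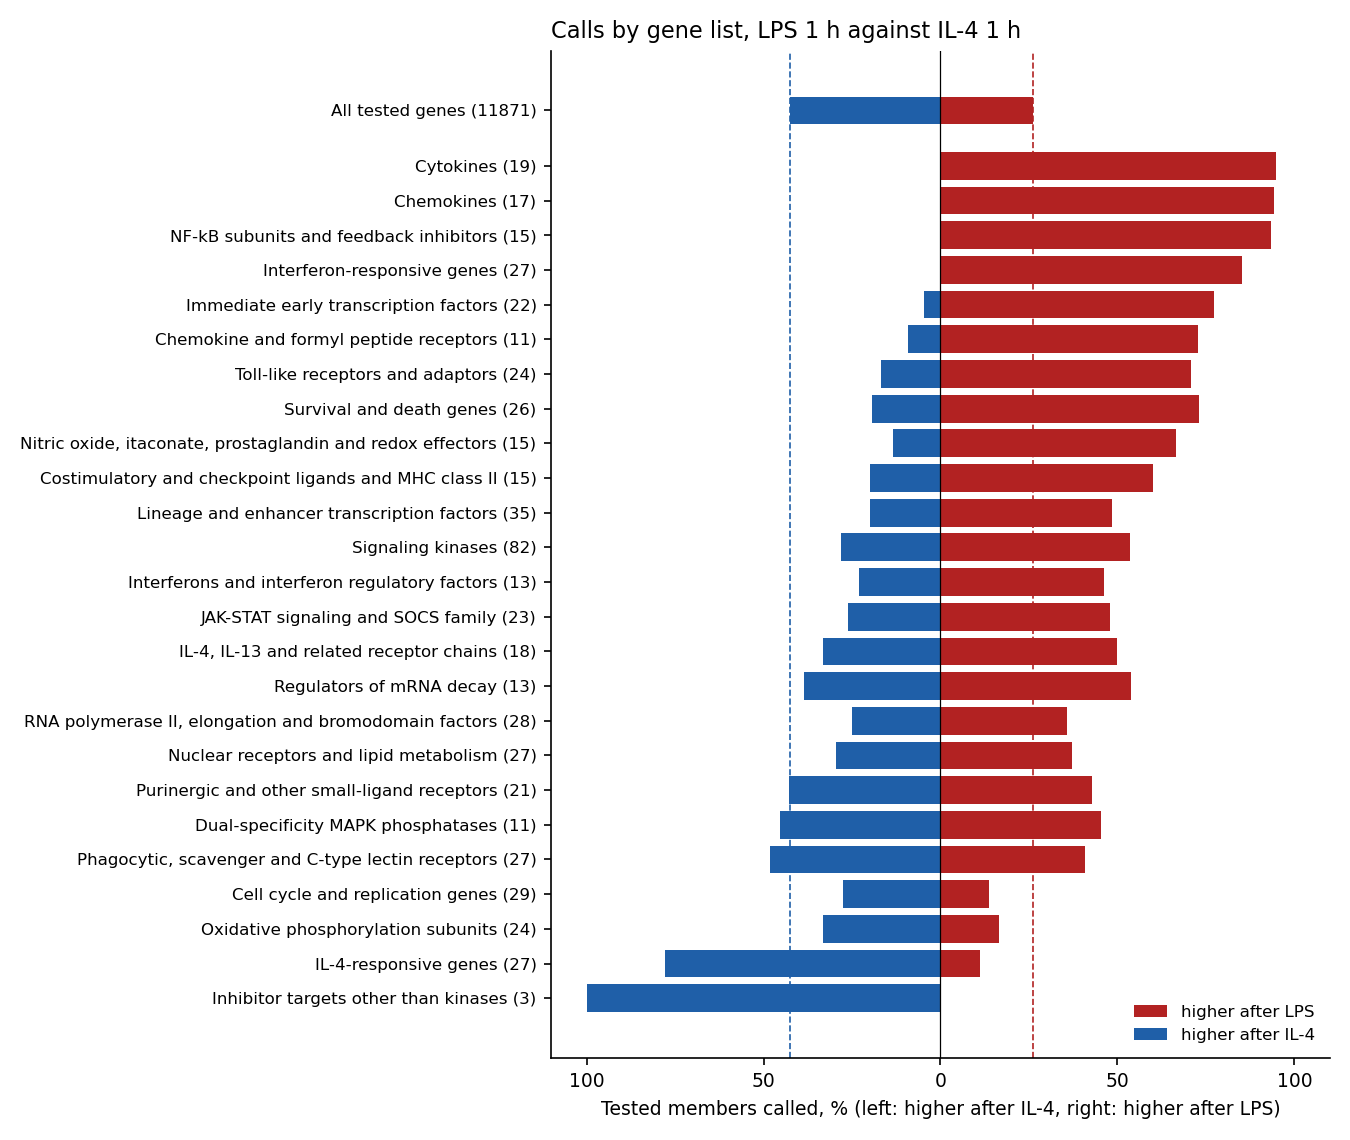
For each of the 25 gene lists, bars give the percentage of tested members called higher after LPS and higher after IL-4, and dashed lines mark the background of 26.2% and 42.5% over all tested genes. The bars toward LPS are highest for cytokines (18 of 19), chemokines (16 of 17) and NF-kB genes (14 of 15), and the IL-4-responsive genes reach 21 of 27 toward IL-4.

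Surface receptors for uptake went both ways. Of 27 tested phagocytic, scavenger and lectin receptor genes, 11 were higher after LPS and 13 higher after IL-4. The share toward IL-4 was near the 42.5% of all tested genes. By the filter 3 of the 27, among them Clec4e, had passed through one stimulus alone, which set their direction. Clec4e, for the mycobacterial glycolipid receptor Mincle, read 991, 1354 and 1660 after LPS and 9, 6 and 9 after IL-4 (7.20 ± 0.27, SE, limma adjusted p = 2.50e-16). The scavenger receptor gene Msr1 read 5255, 9316 and 10396 against 508, 722 and 627. Clec7a, for the beta-glucan receptor dectin-1, read 54, 77 and 83 against 561, 739 and 750 (-3.25 ± 0.33, SE), with 127, 153 and 144 untreated. Among receptors for dying cells, Mertk read 704, 654 and 597 against 2900, 2549 and 2301 (-1.98 ± 0.20, SE), while its relative Axl read 435, 276 and 223 against 119, 84 and 54 (1.86 ± 0.37, SE). The lipid sensor gene Trem2 and the CD300 genes Cd300a, Cd300lb and Cd300lf were higher after IL-4, Cd300lf at 218, 341 and 306 against 15, 26 and 30.

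Of 21 tested receptors for nucleotides and other small ligands, 9 were higher after each stimulus, so the share toward IL-4 was close to the 42.5% of all tested genes, and 6 of the 21 had passed through one stimulus alone. The adenosine receptor gene Adora2b read 451, 456 and 504 after LPS and 24, 53 and 33 after IL-4 (3.72 ± 0.24, SE), and Hcar2, for the niacin receptor, read 59, 38 and 33 against 1, 0 and 0. The ADP receptor genes P2ry1 and P2ry12 went to IL-4. P2ry1 read 39 in each IL-4 library, 1, 4 and 1 after LPS and 3, 5 and 5 untreated (-3.88 ± 0.37, SE, limma adjusted p = 2.58e-09). P2ry12 read 92, 141 and 148 after IL-4 and 5, 11 and 13 after LPS.

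Of 82 tested signaling kinase genes 44 were higher after LPS and 23 higher after IL-4. That division was 50 to 20 after median-of-ratios rescaling and 32 to 31 with equal totals. As deposited, all tested genes divided 26.2% to 42.5%. Mapkapk2, for the p38 substrate kinase MK2, read 13363, 8900 and 8168 after LPS and 519, 312 and 285 after IL-4 (4.78 ± 0.28, SE). Pik3r5, for a regulatory subunit of phosphoinositide 3-kinase gamma, read 11254, 9914 and 9485 against 625, 632 and 536 (4.09 ± 0.12, SE, limma adjusted p = 7.19e-18), whereas the catalytic subunit genes Pik3cg and Pik3cd were higher after IL-4, Pik3cd at 671, 552 and 575 against 155, 113 and 135. Among kinases of the Src family, Lyn was higher after LPS. Fyn went the other way with 464, 615 and 585 against 3537, 3244 and 3391 (-2.62 ± 0.13, SE, limma adjusted p = 4.16e-14), and its LPS values overlapped the untreated 428, 570 and 571. Flt1, for a VEGF receptor, read 31, 65 and 34 against 267, 420 and 298. Btk and Map2k6 were higher after IL-4 with LPS below untreated, Btk at 54, 64 and 71 against 266, 352 and 353 with 242, 233 and 235 untreated. Map3k8, which encodes the LPS-activated kinase TPL2, read 543, 461 and 518 after LPS, 1100, 1084 and 948 after IL-4 and 396, 318 and 374 untreated (-1.04 ± 0.13, SE). The kinase genes Mapk8 and Chuk, for carriers of the signals themselves, were not called. All 3 tested genes of the list of inhibitor targets other than kinases, Top2b, Acox3 and Nqo2, were higher after IL-4, and 2 were after median-of-ratios rescaling. Nqo2 read 92, 102 and 106 against 11, 17 and 17 (-2.68 ± 0.27, SE).

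Of 35 tested lineage and enhancer transcription factors 17 were higher after LPS and 7 higher after IL-4. The IL-4 count was 12 with equal totals. By the filter 3 of the 35, among them Batf3, had passed through one stimulus alone, which set their direction. Kdm6b, for a histone demethylase, read 949, 751 and 831 after LPS, 67, 68 and 68 after IL-4 and 24, 20 and 25 untreated (3.61 ± 0.29, SE). Ets2 read 400, 367 and 352 against 50, 41 and 34, and Spi1, for the master regulator PU.1, read 1451, 1409 and 1468 against 417, 410 and 331 (1.91 ± 0.12, SE). Batf3 read 6, 4 and 4 against 71, 42 and 48 while its relative Batf went to LPS at 291, 154 and 179 against 33, 13 and 22. Foxo3 read 130, 137 and 98 after LPS, 655, 601 and 581 after IL-4 and 1191, 1156 and 1144 untreated, so both stimuli lay below untreated.

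Genes of nuclear receptors and lipid metabolism were divided, with 10 of 27 tested higher after LPS, 8 higher after IL-4 and 9 not called. Of the 27, Nr1h3 had passed the filter through one stimulus alone, which set its direction. The cholesterol exporters went opposite ways: Abca1 read 5139, 3831 and 3656 after LPS and 1214, 701 and 624 after IL-4 (2.36 ± 0.27, SE), while Abcg1 read 114, 32 and 26 against 436, 304 and 284 (-2.84 ± 0.50, SE). Rxra, the retinoid partner of many nuclear receptors, read 66, 24 and 21 against 509, 235 and 210, and Nr1h3, for the oxysterol receptor LXR alpha, read 43, 32 and 32 against 7, 8 and 4. Cd36, for a fatty acid and lipoprotein receptor, read 313, 517 and 628 after LPS, 1114, 1827 and 2027 after IL-4 and 334, 274 and 356 untreated (-1.78 ± 0.38, SE).

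Survival and death genes leaned to LPS, 19 of 26 tested against 5, and 5 of the 26 had passed through one stimulus alone. Nlrp3, the inflammasome sensor gene, read 6062, 5202 and 5556 after LPS and 391, 349 and 277 after IL-4 (4.06 ± 0.12, SE, limma adjusted p = 7.45e-18), and Cflar, for the caspase-8 inhibitor FLIP, read 4798, 4274 and 4202 against 563, 401 and 410. Bcl2a1a and Bcl2a1b, which are near-identical copies whose reads may be divided between them, were both higher after LPS. Casp8, an initiator caspase gene, was lower after LPS. Bcl2, for the founding survival protein, read 258, 317 and 349 after LPS, 1231, 1338 and 1288 after IL-4 and 180, 231 and 244 untreated (-2.07 ± 0.26, SE, limma adjusted p = 1.99e-07).

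Cell cycle genes gave few calls with large spreads. Of 29 tested, 4 were higher after LPS and 8 higher after IL-4, while 17 were not called, and the median difference was -1.02. With replicate numbers as a block 19 were higher after IL-4, and the same count was found without replicate 1. That replicate was low in dividing-cell genes in every group: Top2a read 39 in replicate 1 and 193 and 217 in the others after LPS, and 20 against 306 and 338 after IL-4. The difference of Top2a was -0.12 ± 1.40 (SE). By the filter 3 of the 29, among them Ccnd2 and Mcm7, had passed through one stimulus alone, which set their direction. Ccnd2, for cyclin D2, was higher after LPS at 241, 149 and 213 against 6, 8 and 5 (4.78 ± 0.42, SE), and Mcm7, for a subunit of the replicative helicase, was higher after IL-4 at 28, 38 and 36 against 1, 4 and 9.

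Oxidative phosphorylation subunits were 4 to 8 of 24 tested, 8 to 8 after median-of-ratios rescaling and 1 to 15 with equal totals. Their balance thus depended on the scaling, and all tested genes stood at 26.2% to 42.5% as deposited. By the filter 2 of the 24 had passed through one stimulus alone. Ndufs3 of complex I read 5, 23 and 16 after LPS and 49, 44 and 47 after IL-4 (-1.82 ± 0.30, SE), and Cox6c of complex IV read 40, 46 and 38 against 25, 15 and 20. The machinery of RNA polymerase II divided as 10 to 7 of 28 tested, and 5 to 14 with equal totals. Here 2 of the 28 had passed through one stimulus alone. Ell2, for an elongation factor, read 6067, 6875 and 6774 against 983, 1002 and 803 (2.83 ± 0.14, SE), while Nelfa, for a subunit of the pausing factor NELF, read 12, 44 and 38 against 143, 141 and 128 (-2.28 ± 0.29, SE). Of the bromodomain genes, Brd2 was higher after LPS and Brd3 higher after IL-4, Brd3 at 141, 110 and 128 against 46, 49 and 39. Cdk9, the kinase gene of the elongation factor P-TEFb, was not called.

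Genes without protein product that overlap no other gene also differed between the stimuli, and those named here lead the ranking of such genes. Gm34746 on chromosome 4 read 698, 953 and 1126 after LPS and 22, 32 and 31 after IL-4 (4.97 ± 0.30, SE, limma adjusted p = 1.21e-12). Gm30474 read 114, 73 and 61 against 2, 1 and 1, and the pseudogene Gm33312 read 82, 53 and 53 against 3, 1 and 1. Both Gm30474 and Gm33312 had passed the filter through the LPS libraries alone. Toward IL-4, Kantr on chromosome X read 240, 289 and 337 after IL-4, 16, 28 and 23 after LPS and 150, 212 and 178 untreated (-3.65 ± 0.30, SE, limma adjusted p = 2.20e-10). Gm30605 on chromosome 8 read 321, 362 and 365 against 54, 45 and 53, with 51, 62 and 42 untreated, so IL-4 alone stood above the untreated level. E230029C05Rik read 90, 81 and 68 against 11, 6 and 22.

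The contrast at 1 h differed in size from the contrasts at the neighboring times for many genes. The difference LPS minus IL-4 at 1 h was unlike that at 0.5 h in 4745 of 11871 genes (40.0%), more positive at 1 h in 2434 and more negative in 2311, by the interaction contrast in limma. It was unlike that at 2 h in 4267 genes (35.9%), more positive at 1 h in 2136 and more negative in 2131. For 2210 genes it was unlike both. Without replicate 2 of every group these counts were 2837 and 2606, and without replicate 3 they were 2751 and 2566. The IL-4 and LPS libraries at the 3 times are different samples, and nothing in the sources ties a library at one time to one at another beyond the replicate number.

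Among inflammatory genes, the difference at 1 h was called unlike its neighbors for some and not for others. For Tnf the LPS libraries read 1881, 2527 and 2027 at 0.5 h. They then read 1685, 1697 and 1538 at 1 h, followed by 1405, 1651 and 1508 at 2 h. Its difference at 1 h was not called unlike that at 0.5 h (-0.48 ± 0.77, SE) or 2 h (-0.24 ± 0.77, SE). With that spread this does not show an unchanged difference. Ccl5 after LPS read 468, 359 and 232 at 0.5 h, went to 2367, 2127 and 2065 at 1 h, then to 4311, 4579 and 5045 at 2 h, with at most 2 after IL-4 throughout. Its difference at 1 h exceeded that at 0.5 h by 2.88 ± 0.74 (SE, limma adjusted p = 0.00334). Rsad2 spanned the widest range, with LPS values of 224, 125 and 152 at 0.5 h and 13727, 11157 and 11164 at 2 h. Its 1 h difference was 3.52 ± 0.64 (SE) above that at 0.5 h and -4.18 ± 0.64 (SE) from that at 2 h. Nos2 was listed at 0 in all LPS libraries at 0.5 h and read 413, 719 and 643 at 2 h. Irf1 instead was lowest at 1 h, since it read 1303, 742 and 862 after LPS at 0.5 h and 1725, 1413 and 1439 at 2 h. Its 1 h difference lay below both neighbors by -1.38 ± 0.36 and -1.89 ± 0.36 (SE).

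Genes of the IL-4 response separated early and then took different courses under LPS. Mrc1 read 2511, 1959 and 2403 after LPS at 0.5 h, close to untreated cells, and 606, 396 and 418 at 1 h, while IL-4 already read 13492, 11707 and 12783 at 0.5 h. Its difference at 1 h was -2.60 ± 0.23 (SE, limma adjusted p = 1.10e-08) from that at 0.5 h and did not pass the test against 2 h (0.04 ± 0.23, SE). Socs1 read 3, 1 and 2 after LPS at 0.5 h, then 20, 4 and 10 at 1 h, then 155, 155 and 159 at 2 h, when IL-4 read 202, 130 and 257. Its difference at 1 h was therefore -3.81 ± 0.59 (SE, limma adjusted p = 1.50e-05) from that at 2 h, where it was -0.27. Il4ra crossed over: the difference was -1.50 at 0.5 h, -0.42 at 1 h and 1.17 at 2 h, when LPS read 2918, 2857 and 3643 and IL-4 read 1490, 1333 and 1350. Cish went from -1.69 at 0.5 h to 0.38 at 1 h. Egr2 and Irf4 went the other way, since LPS read 5, 7 and 4 for Egr2 and 6, 4 and 5 for Irf4 at 2 h, and their 1 h differences were 2.90 ± 0.46 and 4.35 ± 0.51 (SE) above those at 2 h.

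**Figure D5:**
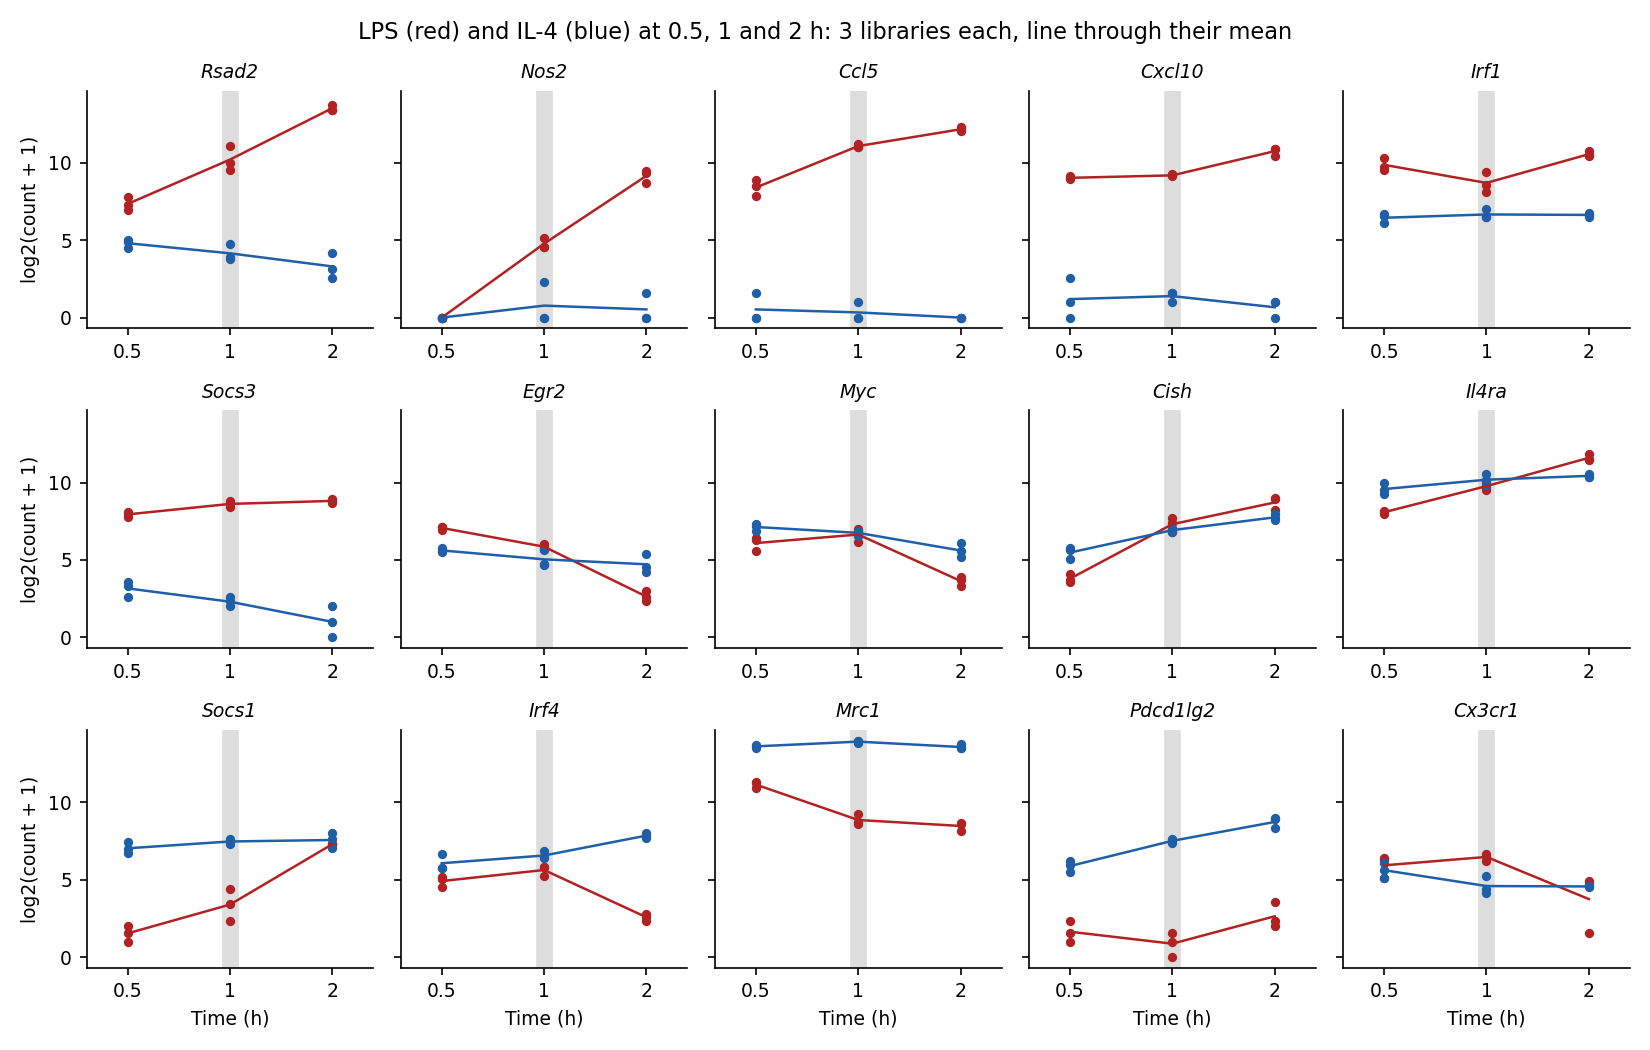
Normalized read counts + 1 on a log scale are plotted per library for 15 genes at 0.5, 1 and 2 h after LPS and after IL-4. Ccl5, Rsad2 and Nos2 are higher after LPS at each later time, Mrc1 after LPS is lower at 1 h than at 0.5 h, and Il4ra is higher after IL-4 at 0.5 h and higher after LPS at 2 h.

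Among markers of other cell types, 1 of 2 tested dendritic cell markers and 1 of 3 tested fibroblast markers were called higher after LPS. Zbtb46, a dendritic cell factor gene, read 90, 49 and 43 after LPS and 6, 0 and 2 after IL-4 (4.41), and Pdgfrb, a stromal receptor gene, read 24, 29 and 24 against 4, 1 and 2 (3.10). Both Zbtb46 and Pdgfrb had passed the filter through the LPS libraries alone, which set their direction. The part that other cells play in any result was not tested.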

How the data were processed

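Chromatin-associated RNA of 27 samples in 9 groups of 3 (untreated, and each stimulus at 4 times from 0.5 to 4 h) was made into random-primed Smart-seq2 libraries. Per the labels and the study's methods, single-end reads were aligned to mm10 with TopHat2 2.1.1, multi-mapping and blacklisted reads were removed (bedtools 2.29.2), reads were counted per RefSeq gene (GRCm38.p6) with Bioconductor packages, and libraries were scaled to each other in R 3.6.2 on genes that did not vary. The deposited values are therefore rounded normalized read counts, a score and not raw counts, so no count model was run. The authors' notes also name DESeq2, with no version. The study's impulse model over time was not run here. Scaling on invariant genes fixes the balance of higher and lower genes, and rounding limits genes near the floor.

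Values were transformed to log2(value + 1) and fitted with limma 3.58.1 (R 4.3.3; Python 3.11.15 for tables) on all 27 samples, so that the groups shared one estimate of spread, with a mean-variance trend and Benjamini-Hochberg adjustment over the 11871 tested genes. Interaction contrasts compared the difference at 1 h with those at 0.5 h and 2 h. Scripts were tested on simulated data. Nothing in the labels says that replicates were separate cultures, so p-values measure the spread between these samples, which may be technical. Folds are given as bounds where every library of the lower group held at most 3 normalized reads, the floor. Named genes were 24 fixed genes, the leading genes by size of difference in each class against untreated, and up to 4 called members plus members with a role of note in each of 34 gene lists. Alternatives were run gene by gene for the fixed and ranked genes alone, 61 of them tested, and for list members only as counts per list. The members and lists were chosen with earlier results of these data known.

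Depth could be read for LPS 1 h replicate 1 alone: no gene held the values 4, 13 or 21, which puts 1 read at 1.13 normalized reads and the library at 3432899 to 3438961 reads. The depth of the others is unknown, and the median SE was 0.174 for genes with a mean of 50 or more and 0.317 below it. Samples with the same replicate number deviated together from their group means (correlations across genes of 0.540, 0.299 and 0.357 for numbers 1, 2 and 3). Different numbers gave 0.265 and 0.267 between 2 and 3 and negative values with 1, so the pattern mainly set number 1 apart. Where the numbers do pair the samples, the main fit ignores that pairing, since it left the replicate number out. A fit with that number as a block called 8803 genes against 8150, and it is given where it changes a call. Replicates 2 and 3 lay closer to each other than to replicate 1 (SD of their log2 ratio over 629 genes 0.109 after LPS and 0.171 after IL-4, against 0.381 to 0.400) and were kept as separate samples. With unknown depth, sampling noise between them was not tested, and the fit on their average is an alternative. Alternatives changed the filter, pseudocount, scaling, samples and spread model.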

Additional observations from a re-analysis of the deposited data

Results flagged for a closer look

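The difference LPS minus IL-4 at 1 h was tested against that at 0.5 h and at 2 h for 22 of the 24 fixed genes, 44 interaction contrasts in all, and 21 passed an adjusted p under 0.05 in limma, where 40.0% of all tested genes passed against 0.5 h and 35.9% against 2 h. No cause of these differences was tested.

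Inflammatory and interferon-linked genes gave 9 of them. The contrast of Ccl5 was larger at 1 h than at 0.5 h by 2.88 (adjusted p = 0.00334), and that of Cxcl10 differed from 2 h by -2.29 (adjusted p = 0.00790). Rsad2 differed from 0.5 h by 3.52 (adjusted p = 0.000119) and from 2 h by -4.18 (adjusted p = 1.23e-05), and Nos2 by 4.01 (adjusted p = 0.000465) and -4.64 (adjusted p = 8.61e-05). Irf1 lay below both neighbors, by -1.38 (adjusted p = 0.00394) and -1.89 (adjusted p = 0.000204). Cx3cr1 was more positive at 1 h than at 2 h by 2.70 (adjusted p = 0.0190).

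Genes of JAK-STAT feedback and the IL-4 receptor gave 6. Socs1 differed from 2 h by -3.81 (adjusted p = 1.50e-05). Socs3 differed from 0.5 h by 1.54 (adjusted p = 0.0143) and from 2 h by -1.50 (adjusted p = 0.0182). Cish was more positive than at 0.5 h by 2.07 (adjusted p = 0.000964), and Il4ra by 1.08 (adjusted p = 0.00318), while Il4ra was below 2 h by -1.58 (adjusted p = 6.93e-05).

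Transcription factors and IL-4 target genes gave the remaining 6. Egr2 exceeded its 2 h contrast by 2.90 (adjusted p = 2.33e-05), Myc by 1.86 (adjusted p = 0.00205) and Irf4 by 4.35 (adjusted p = 2.95e-07). Arg1 was more negative at 1 h than at 0.5 h by -1.56 (adjusted p = 0.0475), Mrc1 by -2.60 (adjusted p = 1.10e-08) and Pdcd1lg2 by -2.40 (adjusted p = 0.00265).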

How the results depend on the processing

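Of 1268 values of the 61 tested genes that were fixed or ranked, recomputed under the alternatives, 1236 kept direction and call, 14 gained the call, 18 lost it and none reversed. The losses were of Egr2, Irf4, Cx3cr1 and Tgfbi, and the gains of Il4ra, Il1r1, Slc7a2 and Gda. Of 1428 counts of called list members, 1376 stayed within 1.5 times and 52 did not. The count of 8150 genes was 8005 with the 6 libraries alone, 8117 and 8288 with pseudocounts of 0.5 and 8, 9802 with no filter and 6863 to 8511 without a replicate or library. It fell to 4830, and the count higher after IL-4 to 2511, when a mean of at least 50 was required, which tests fewer genes. Equal totals left 2045 genes higher after LPS, and a log2 difference of at least 1 left 1956. The interaction counts ranged from 2751 to 5605 against 0.5 h and from 2566 to 5082 against 2 h without a replicate or library, and were 3066 and 2812 with replicates 2 and 3 averaged, where samples are fewer. That average also lost the calls of Egr2, Irf4, Cx3cr1 and Tgfbi. With the replicate number as a block 8803 genes were called, 3367 higher after LPS and 5436 higher after IL-4, and beside Il4ra and Il1r1 it changed no call among these 61 genes. Whether the block or the scaling lies nearer the truth was not tested. The edgeR and DESeq2 alternatives were not run, since they were planned for raw counts. Depth limits genes near the floor, such as Ifnb1, Ccl17 and Retnla.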
